A study of Mus musculus with 20 samples.

Results

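H3K4me1 of mouse embryonic fibroblasts (MEFs) was compared with H3K4me1 of mouse embryonic stem (ES) cells by chromatin immunoprecipitation and sequencing, in bins of 1 kb on chromosomes 1 to 19. The comparison used 6 of the 20 libraries of the series: 1 MEF H3K4me1 library, 3 ES H3K4me1 libraries, and 1 library of total histone H3 from each cell type as background. Of 2231762 bins that held a read of any library used, 281903 reached a mean of 1 RPM (reads per 1000000 distinct reads), taken as the mean of the MEF level and the mean ES level, and were tested. A bin was called gained or lost in MEFs where limma gave a Benjamini-Hochberg adjusted p of 0.05 or less and the level was at least 2-fold higher or lower.

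The MEFs were grown in ordinary culture, and the labels give neither a strain, an embryonic age nor a passage, nor whether embryos were pooled. ES replicate 1 was of the V6.5 line, a C57BL/6-129 hybrid, taken 2 passages after removal from feeder cells. ES replicate 2 was V6.5 with a doxycycline-inducible 4F2A transgene, taken after 1 passage, and ES replicate 3 was the inbred C57BL/6 line j21, also after 1 passage. The ES H3 library was from V6.5 cells after 1 passage. The ES libraries that describe the changed bins were all from V6.5, with H3K27ac and H3K4me3 after 1 passage and p300 and whole cell extract after 2 passages, so states that combine H3K27ac and p300 join cultures of different passage. The iPS library was from O6 cells after 2 passages. All ES and iPS cells had been kept on irradiated MEF feeders, so ES cells were themselves grown beside fibroblasts, and the labels do not say how many feeders were left on the gelatin plates. The spread between ES libraries covers 3 different cell stocks. The MEF library had no replicate and was assumed to vary like an ES library, so the p-values measure the spread between these ES libraries, part of which may be technical.

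H3K4me1 is a methyl mark that lies on nucleosomes at enhancers, whether active or poised, and in the flanks of promoters. H3K27ac, an acetyl group on the same histone, is found at enhancers and promoters in use, and p300 is an acetyltransferase that deposits it and that marks enhancers where transcription factors have recruited it. H3K4me3 marks promoters, where it takes the place of H3K4me1 next to the start site. Enhancers carry these marks in patterns that differ between cell types, while many promoters are marked in most of them. No annotation of the genome build of these files was used, so regions are given by position, without gene names, and the cell types were not checked against marker genes. The positions fit within the chromosome lengths of mm8, and all coordinates below are 1-based positions as in the files.

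After counting each position and strand once, the MEF H3K4me1 library held 14.3 M reads on chromosomes 1 to 19, against 9.95, 9.39 and 6.20 M in ES replicates 1 to 3. Repeated reads made up 20.7% of the MEF library, against 7.06, 4.97 and 1.63% of the ES libraries. The H3 libraries held 6.12 M reads for MEFs and 9.38 M for ES cells. The ES libraries used to describe the changed bins held 8.77 and 8.40 M reads for H3K27ac, 6.96 and 8.24 M for p300, and 2.32 M for H3K4me3, where 70.0% of reads were repeats. A bin at the genome mean had 0.448 RPM.

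MEFs gained H3K4me1 at 84326 bins and lost it at 80214 bins, which is 29.9% and 28.5% of all bins tested, while 117363 bins were not called. At gained bins the mean level was 4.95 RPM in MEFs, against 0.776, 0.845 and 0.927 RPM in ES replicates 1 to 3. At lost bins it was 0.451 RPM in MEFs, close to the genome mean, against 2.94, 3.08 and 3.50 RPM in the ES libraries. In both directions the weaker side lay near the level of the H3 libraries. In such bulk samples, fewer cells with the mark and less mark per cell cannot be told apart. Enrichment over H3 was called in no ES library at 80.9% (95% Wilson interval 80.7 to 81.2) of gained bins, and in MEFs at 1.32% (1.24 to 1.40) of lost bins. MEFs had no read at all at 8.79% of lost bins, and ES cells had none in any library at 0.442% of gained bins. All intervals cover counting error only, since reads amplified by PCR are not independent molecules and neighbouring bins are not independent of each other.

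The sizes of gains and losses were alike. The median log2 difference was 2.53 at gained bins, with the middle 80% between 1.51 and 3.72, and -2.48 at lost bins, with the middle 80% between -3.71 and -1.43. Differences of at least 4-fold made up 71.5% of gains and 68.3% of losses, and differences of at least 8-fold made up 31.2% of each. The median standard error from limma was 0.60 at gained bins and 0.48 at lost bins. Bins just inside the threshold, at an adjusted p of 0.045 to 0.05 from limma, had a median log2 difference of 1.53 for gains and -1.30 for losses, against 1.49 and -1.27 for bins just outside it at 0.05 to 0.055, so values changed little across the limit. Over all bins tested the median log2 difference was 0.20, and scaling by trimmed means or by bins enriched in no library moved all values by -0.13 and 0.34.

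The separation between cell types was wider than that between the ES stocks. Levels were at least 2-fold apart at 68.3, 66.6 and 67.6% of tested bins between MEFs and ES replicates 1, 2 and 3. Between ES libraries this held at 10.6% of bins for replicates 1 and 2, 19.8% for 1 and 3, and 16.8% for 2 and 3. With the MEF library thinned to the mean ES depth of 8.51 M reads, 86373 bins were gained and 79647 lost, and these included 93.3% of the gained and 93.9% of the lost bins. The calls needed the filter on level: with all 2034560 bins that held a read of these 4 H3K4me1 libraries tested, limma called 0 gained and 0 lost bins at the adjusted threshold, with 182875 and 204116 at an unadjusted p under 0.05. With the filter at 2 RPM, 46244 bins were gained and 24483 lost.

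**Figure D1:**
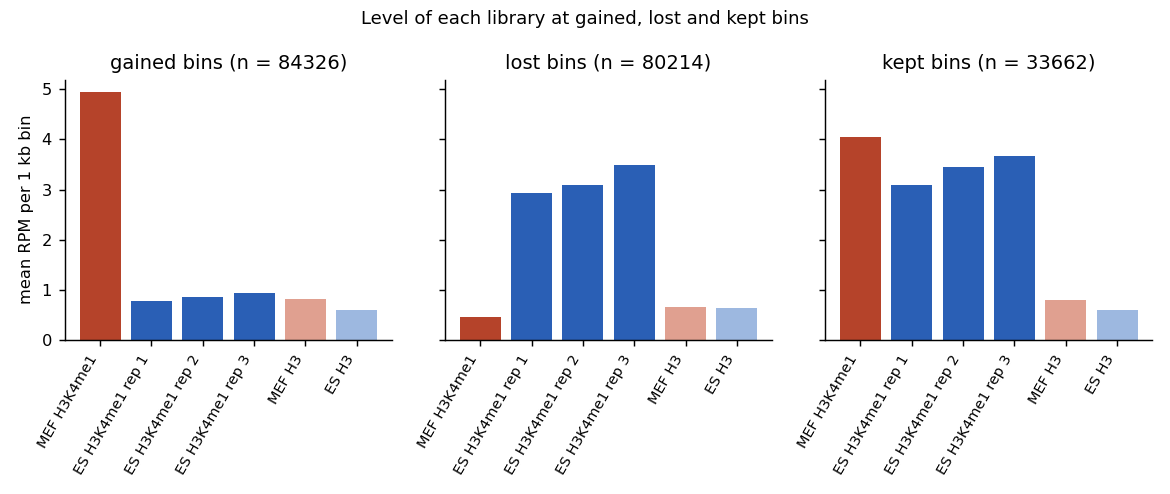
Mean RPM per 1 kb bin of the MEF and ES H3K4me1 libraries (dark bars) and of the MEF and ES H3 libraries (pale bars) at gained, lost and kept bins, with 1 bar per library. At gained bins the MEF bar stands at 4.95 RPM and the ES bars at 0.776 to 0.927, at lost bins the MEF bar stands at 0.451 and the ES bars at 2.94 to 3.50, and at kept bins all 4 lie between 3.10 and 4.06.

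Bins that kept the mark gave a measure of shared H3K4me1. ES-marked bins, which were enriched in at least 2 of the 3 ES libraries, numbered 149107. Of the 138731 of these that were tested, 51.1% (50.8 to 51.3) were lost in MEFs and 7.54% gained further. Another 24.3% were kept, meaning enriched in MEFs and not called either way. The 33662 kept bins had a mean of 4.06 RPM in MEFs, against 3.10, 3.45 and 3.67 RPM in the ES libraries. Of gained bins, 12.4% (12.2 to 12.6) were already ES-marked.

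Total H3 did not move alike at gains and losses. At gained bins H3 had 0.819 RPM in MEFs and 0.588 RPM in ES cells, a ratio of 1.39. The ratio was 1.25 at bins 1 to 2 kb from a gained bin, 1.12 at 3 to 5 kb and 0.994 at 10 to 50 kb. At lost bins H3 had 0.660 RPM in MEFs and 0.626 RPM in ES cells, a ratio of 1.05, and bins not called had a ratio of 1.30. H3 came from 1 library per cell type, so these ratios have no test. Gained bins were chosen for a large H3K4me1 difference, so its size cannot be weighed against the H3 ratio at the same bins. An alternative chosen after seeing the data took the H3 ratio over 5 kb off each log2 difference. With it 70251 bins were gained and 86933 lost, and these included 79.2% of the gained and 95.3% of the lost bins above. How far the H3 ratio contributes to the calls was not tested further. H3 of at least 5 times the genome mean in either cell type marked 1050 gained bins (1.25%) and 293 lost bins (0.365%), against 0.818% of all tested bins.

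Gained and lost bins lay in separate stretches. The median distance was 24 kb from a gained bin to the nearest lost bin and 16 kb from a lost bin to the nearest gained bin, whereas bins not called lay a median of 6 kb from either kind. Joined over gaps of up to 1 kb, gained bins formed 41751 domains with a mean width of 2.14 kb and lost bins formed 36171 domains with a mean width of 2.39 kb. A single bin made up 55.4% of gained and 52.7% of lost domains. Domains of at least 5 kb made up 8.77% of gained and 12.1% of lost ones, and domains of at least 10 kb numbered 641 and 877. The widest gained domain spanned 84 kb and the widest lost domain 49 kb.

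MEF H3K4me1 regions were narrower than ES ones at equal depth. With all 4 libraries thinned to 6.20 M reads, MEFs had 58728 enriched regions that covered 134 Mb with a mean width of 2.28 kb. The 3 ES libraries had 48972, 48851 and 61391 regions with mean widths of 2.90, 2.93 and 2.97 kb. Regions of at least 10 kb numbered 1144 in MEFs, against 2244, 2294 and 3006 in the ES libraries. They held 12.4% of the length called in MEFs, against 24.9, 25.6 and 26.0% in ES cells. The MEF value lay outside the range of the 3 ES libraries for mean width and for regions of at least 10 kb, but within it for the number of regions, and 1 MEF library allows no test. The order held with the genome mean as background in place of H3, an alternative chosen after seeing the data, at a mean width of 2.71 kb in MEFs, against 3.30, 3.28 and 3.32 kb in ES cells.

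**Figure D2:**
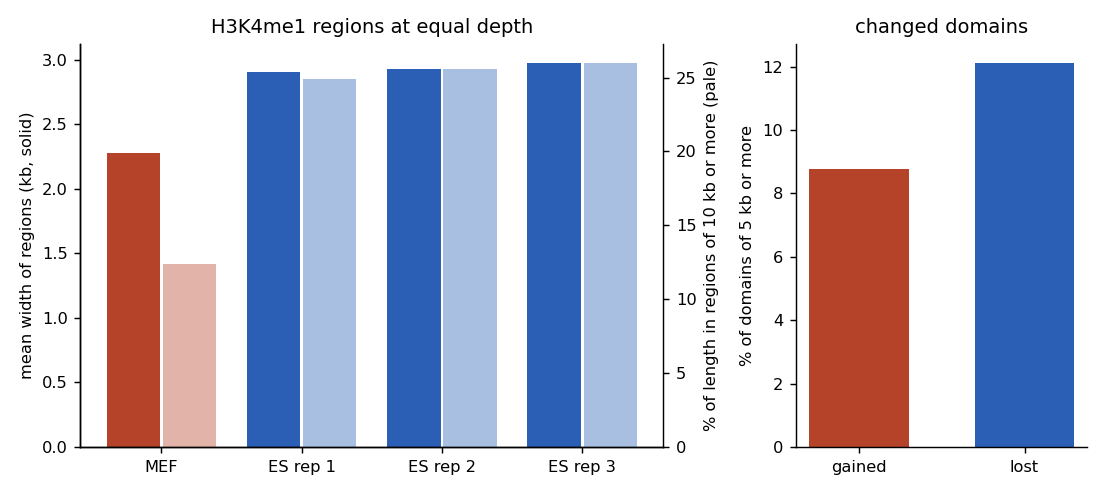
Left, mean width in kb of enriched H3K4me1 regions at equal depth (solid bars, left axis) and percent of their length in regions of at least 10 kb (pale bars, right axis) for the MEF library and the 3 ES libraries. Right, percent of gained and of lost domains that span at least 5 kb; MEFs show 2.28 kb and 12.4%, against 2.90 to 2.97 kb and 24.9 to 26.0% in ES cells, and 8.77% of gained against 12.1% of lost domains reach 5 kb.

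Broad ES domains were seldom left whole. At least 50% of the bins were lost in 37.3% of single-bin ES-marked domains, in 52.5% of those of 2 to 4 kb, in 48.1% of those of 5 to 9 kb, in 50.9% of those of 10 to 19 kb and in 52.3% of those of 20 kb or more. No bin was lost in 62.7% of single-bin domains, but in 15.7% of those of 5 to 9 kb and in 3.06% of those of 20 kb or more, which have more bins that could be called. Of MEF-enriched domains of 20 kb or more, 75.5% had at least 50% of their bins gained, against 46.8% of single-bin ones. Within ES domains of 10 kb or more, 48.3% of the outermost bins and 52.9% of inner bins were lost. The ratio of the MEF level to the ES level was 0.683 at the edges and 0.679 inside, so these domains did not lose the mark mainly from their edges.

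The widest gained domains had little H3K4me1 in ES cells. The domain with the largest summed gain, chr14:24295001-24373000, spanned 78 kb and held 11536 MEF reads, against 663, 705 and 585 reads in ES replicates 1 to 3. Per kb this was 10.4 RPM in MEFs, against 1.01 ± 0.182 RPM in ES cells (SD, n = 3), and 74 of its bins were called at a limma adjusted p of at most 0.0388. Whole liver had 11.2 RPM per kb there and iPS cells, which were made from MEFs, had 0.922 RPM, so the mark of this domain was also present in an adult tissue and was at the ES level in iPS cells.

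The 81 kb domain chr2:27712001-27793000 held 8949 MEF reads, against 195, 211 and 101 ES reads. It had 7.74 RPM per kb in MEFs, against 0.240 ± 0.038 RPM in ES cells (SD, n = 3), a ratio of 31.6 with a counting interval of 28.9 to 34.6. Liver had 0.740 RPM per kb and iPS cells 0.226 RPM, so of MEFs, ES cells, iPS cells and liver this domain was strong in MEFs alone. H3 there had 1.16 RPM per kb in MEFs and 0.584 RPM in ES cells. The 84 kb domain chr7:112019001-112103000, the widest of all, held 7758 MEF reads, against 475, 227 and 126 ES reads. Its ES libraries lay farther apart relative to their mean than those of the chr14 and chr2 domains, at 0.569, 0.288 and 0.242 RPM per kb, all far below the 6.47 RPM of MEFs.

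The other domains with large summed gains already carried some H3K4me1 in ES cells. The 49 kb domain chr15:77601001-77650000 had 13.3 RPM per kb in MEFs, against 3.43, 3.46 and 3.60 RPM in the ES libraries. It also carried ES H3K27ac at 5.73 and 5.79 RPM per kb, so it was an acetylated ES domain that was stronger still in H3K4me1 in MEFs. The 47 kb domain chr8:87598001-87645000 had 10.6 RPM per kb in MEFs, against 1.51, 1.64 and 2.03 RPM in ES cells.

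Single bins showed the limits of the fold. At chr5:36542001-36543000 MEFs had 341 reads, against 0, 2 and 0 reads in the ES libraries, which gave a log2 difference of 6.56 ± 0.66 (SE) at a limma adjusted p of 0.000234. At chr2:27598001-27599000, in the same megabase as the chr2 domain above, MEFs had 293 reads, against 0, 1 and 0. At chr18:61196001-61197000 MEFs had 228 reads and no ES library had any, so the level was at least 136-fold higher than 3 reads over the ES group would give, and the exact counting interval of the ratio starts at 109.6. Bins at chr17:72865001-72866000 and chr7:98361001-98362000 had 261 and 318 MEF reads, against at most 2 reads in any ES library. H3 gave 3 to 10 MEF reads and 4 to 11 ES reads at these 5 bins, so the bins could be read in both cell types.

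The widest lost domain, chr12:87363001-87412000, was strongly acetylated in ES cells. It spanned 49 kb and held 167 MEF reads, against 2040, 2446 and 1261 reads in ES replicates 1 to 3. Per kb this was 0.239 RPM in MEFs, against 4.55 ± 0.663 RPM in ES cells (SD, n = 3), a level 19.2-fold higher in ES cells. H3K27ac had 13.1 and 11.4 RPM per kb there in ES cells and p300 had 6.32 and 5.44 RPM, with single p300 bins at 49.7 and 44.0 RPM. iPS cells had 3.88 RPM per kb of H3K4me1, close to the ES libraries, and liver had 1.09 RPM.

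Other lost domains with a large summed loss had less acetylation. The 44 kb domain chr4:116837001-116881000 had 0.242 RPM per kb in MEFs, against 3.45, 4.04 and 4.76 RPM in ES cells, with H3K27ac at 3.07 and 3.12 RPM. The 42 kb domain chr16:8656001-8698000 had 0.285 RPM per kb in MEFs, against 3.90, 3.86 and 3.95 RPM, with H3K27ac at 6.27 and 4.94 RPM. The 40 kb domain chr12:12815001-12855000 had 0.324 RPM per kb in MEFs, against 4.29, 3.83 and 4.10 RPM, with H3K27ac at 6.53 and 5.25 RPM. In all 3 domains the MEF level was under the genome mean, and iPS cells had 4.04 to 5.38 RPM per kb. The domain with the largest summed loss of all, chr11:3039001-3057000, was of another kind: H3 itself had 11.3 RPM per kb in MEFs and 13.5 RPM in ES cells, so reads of every library listed here piled up there. Its H3K4me1 of 3.98 RPM per kb in MEFs, against 14.2, 14.6 and 23.5 RPM in ES cells, is given as a value only.

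The 5 bins with the largest losses had no MEF read at all. At chr8:12505001-12506000 there were 0 MEF reads, against 106, 97 and 52 ES reads, so the level was at least 47.5-fold lower in MEFs than in ES cells when 3 reads are allowed to the MEF library. By the same measure the bins at chr17:31152001-31153000 and chr1:120471001-120472000 were at least 44.2-fold and 40.6-fold lower. The exact counting intervals are wider and reach up to 0.0261, 0.0280 and 0.0305 of the ES level at the 3 bins. The bins at chr4:125087001-125088000 and chr5:120966001-120967000 also had no MEF read. Each carried H3K27ac in ES cells, with 44 to 138 reads, and p300, with 13 to 38 reads. MEF H3 gave 0 to 3 reads at these bins, against 5 to 13 reads of ES H3, and at chr4:125087001-125088000 it gave none, so the bin's readability in MEFs is not shown there.

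The lost domains with the highest p300 spanned 5 to 17 kb. The domain chr1:182719001-182734000 reached 82.1 and 71.9 RPM of p300 in 1 bin and had 1.11 RPM per kb of H3K4me1 in MEFs, against 4.32, 5.06 and 4.13 RPM in ES cells. The 5 kb domain chr2:162740001-162745000 held 8 MEF reads, against 145, 200 and 86 ES reads, with 459 and 532 p300 reads. The MEF level there was 0.0332 of the ES level, with a counting interval of 0.0142 to 0.0660. At chr9:110792001-110809000, chr4:118564001-118570000 and chr17:70728001-70739000 the MEF level was 0.137, 0.0813 and 0.127 of the ES level, and the highest p300 bin stood at 53.6 to 71.4 RPM.

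The 5 lost domains with the highest ES H3K27ac had 0.0907 to 0.355 of the ES H3K4me1 level in MEFs. Of these, chr11:3093001-3094000 lay in the same pile-up of H3 reads as the chr11 domain above, with 117 MEF and 163 ES H3 reads in 1 kb. The bin chr4:140557001-140558000 had 30.2 and 30.5 RPM of H3K27ac but 2.11, 3.41 and 1.45 RPM of ES H3K4me1, against which MEFs had 0.700 RPM, and its limma adjusted p was 0.0418. At chr5:137840001-137841000 MEFs had 0.700 RPM, against 4.62, 6.50 and 4.68 RPM in ES cells. At chr8:73577001-73578000 MEFs still had 3.36 RPM, against 7.64, 11.5 and 9.36 RPM. The 2 kb domain chr12:87805001-87807000, on the chromosome of the widest lost domain, had 0.630 RPM per kb in MEFs, against 6.38, 8.89 and 4.92 RPM in ES cells.

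The strongest shared domains were strong in both cell types, which follows in part from their choice, since kept bins were enriched in MEFs and not called different. The 32 kb domain chr7:28635001-28667000 had 8.20 RPM per kb in MEFs, against 5.42, 5.62 and 5.19 RPM in ES cells. The 29 kb domain chr7:112474001-112503000 had 5.48 RPM per kb in MEFs, against 4.76, 4.86 and 4.29 RPM. The 25 kb domain chr2:29441001-29466000 had 5.87 RPM per kb in MEFs, against 4.91, 5.54 and 5.20 RPM. The MEF level was above every ES library in all 3, at 1.51, 1.17 and 1.13 of the ES level, and 3 bins inside the chr2 domain were lost.

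At lost bins, ES cells carried less H3K27ac than at kept bins, and p300 differed by less. Over the 70853 lost bins that were ES-marked, H3K27ac had 2.82 and 2.54 RPM in its 2 ES libraries, against 3.76 and 3.90 RPM at kept bins, ratios of 0.752 and 0.653. p300 had 2.00 and 1.89 RPM at lost bins, against 2.30 and 2.01 RPM at kept bins, ratios of 0.868 and 0.939. ES whole cell extract, the background of p300, had 0.773 RPM at lost and 0.819 RPM at kept bins, a ratio of 0.944. The second p300 library thus differed by about as much as its background. The share enriched for H3K27ac was 50.7 and 44.7% at lost bins, against 58.1 and 56.3% at kept bins, and for p300 it was 24.9 and 23.0%, against 31.7 and 25.8%. These ratios describe bins, which are not replicates, and carry no test. With the filter at 2 RPM both turned round, to a mean ratio of 1.10 for H3K27ac and 1.20 for p300. The filter is on the mean of the MEF and ES levels. Lost bins, low in MEFs, thus need a higher ES level to pass than kept bins. In lost bins with 2 to 3 RPM of ES H3K4me1, H3K27ac had 1.79 and 1.61 RPM. At 6 RPM or more it had 8.19 and 7.44 RPM. The filter at 1 RPM selects in the same way, and the part of this selection in the reversal was not tested.

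Part of this difference lay near promoters. Bins within 2 kb of ES H3K4me3 made up 13.8% of ES-marked lost bins and 34.0% of kept bins. Away from H3K4me3, and averaged within 5 classes of ES H3K4me1 level, the ratios of lost to kept bins were 0.945 and 0.894 for H3K27ac and 0.944 and 0.984 for p300. In the same classes the MEF H3 ratio was 0.867 and the ES H3 ratio 1.02. Away from promoters, lost and kept bins of like ES H3K4me1 thus differed by little in either ES mark.

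Lost bins carried ES H3K27ac and p300 about as often as ES-marked bins as a whole, but less often than kept bins. Both ES libraries had an H3K27ac call at 36.3% (36.0 to 36.7) of lost bins and neither had one at 48.4%, while p300 was called in both at 16.1% (15.9 to 16.4) and in neither at 72.4%. No call for either mark in any library was found at 40.5% of lost bins. Over all tested bins, H3K27ac was called in both libraries at 24.7%, p300 in both at 10.6% and neither mark at 60.8%, and over all ES-marked bins the shares were 38.8, 16.6 and 39.2%. Lost bins were thus close to ES-marked bins as a whole, but 88.3% of lost bins were ES-marked themselves, so part of this closeness is built in. At lost bins that were ES-marked, H3K27ac was called in both libraries at 39.8% and p300 in both at 17.8%. At kept bins the shares were 49.9 and 21.5%. At gained bins both ES libraries had an H3K27ac call at 9.39% (9.19 to 9.59) and a p300 call at 3.86% (3.74 to 4.00). Lost domains differed by width: a p300 call in both libraries was found in 11.3% of single-bin lost domains and in 87.1% of those of 10 kb or more, and an H3K27ac call in 18.0 and 96.9%. Wider domains have more bins to hold a call. Counted per bin, the shares at these widths were 11.3 and 19.8% for p300 and 18.0 and 58.7% for H3K27ac. H3K27ac had 1.54 and 1.42 RPM in single-bin domains and 4.63 and 4.18 RPM in those of 10 kb or more. Mean ES H3K4me1 rose as well, from 2.61 to 3.69 RPM, and its part in these differences was not tested. The ES H3 level was 0.619 and 0.658 RPM over the same 2 widths.

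Bins with p300 but no H3K27ac were lost most often. Of ES-marked bins away from H3K4me3, 69.6% (68.2 to 71.0) of 3971 bins with p300 in both libraries and H3K27ac in neither were lost. The share was 58.5% (57.6 to 59.4) of 11673 bins with both marks, 60.1% (59.4 to 60.7) of 21161 with H3K27ac and no p300, and 54.6% (54.1 to 55.1) of 41158 with neither. Over all 106337 tested ES-marked bins away from H3K4me3 it was 57.4% (57.1 to 57.7), near the shares of these 3 states. That total includes bins with a call in only 1 library of a mark, which belong to none of the 4 states. The other states stood in another order within the classes from 2 to 6 RPM of ES H3K4me1, where bins with neither mark were lost more often than acetylated ones. Of the bins with neither mark, 9372 had under 2 RPM of ES H3K4me1, and 29.7% of these were lost. Bins under 2 RPM in ES cells were tested only where the MEF level brought the mean to 1 RPM. The filter itself thus limits how many of them can be called lost, and it bears on the shares over all levels above. At 3 to 4 and 4 to 6 RPM, 64.5 and 64.4% of bins with neither mark were lost. The shares there were 62.5% in each class with H3K27ac alone, and 59.5 and 61.2% with both marks. In bins with 2 to 3 RPM of ES H3K4me1, the shares were 72.4% with p300 alone, 54.6% with both marks, 59.5% with H3K27ac alone and 60.9% with neither. Their MEF level was 0.987 RPM with p300 alone and 1.82 RPM with both marks.

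The share lost with p300 alone was the highest of the 4 states in 14 of the 15 settings in which it was computed, all with bins of 1 kb. These settings draw on the same libraries and the same calls of ES state, so they are not independent of each other. The exception was the filter at 2 RPM, where 42.0% of bins with p300 alone and 49.8% of bins with both marks were lost. That filter left 1622 of the 3971 bins with p300 alone. The 4 states were defined from ES libraries that took no part in the calls of loss, apart from the requirement that the bin was ES-marked.

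**Figure D3:**
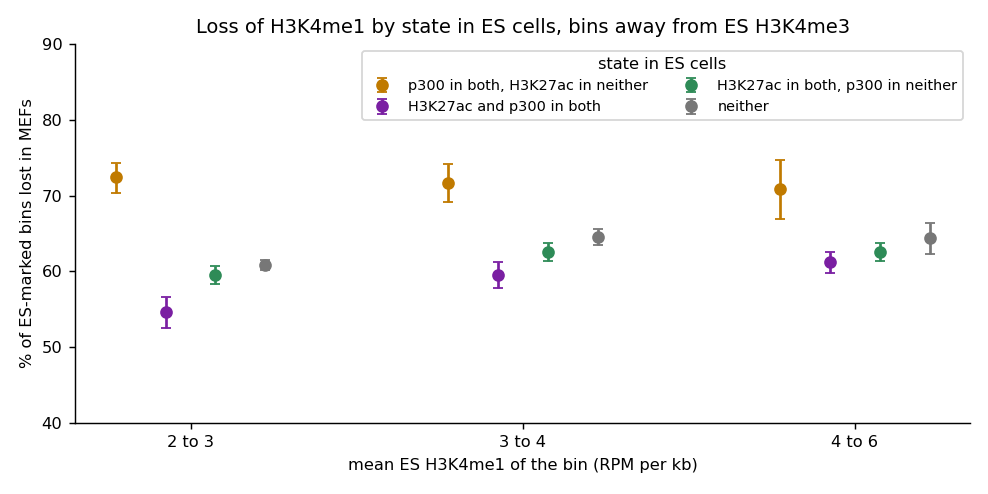
Percent of ES-marked bins away from ES H3K4me3 that were lost in MEFs (vertical axis from 40 to 90%, bars are 95% Wilson intervals) by state in ES cells, within 3 classes of mean ES H3K4me1 in RPM per kb. Bins with p300 in both libraries and H3K27ac in neither stand highest in each class, at 72.4, 71.7 and 70.9%, and bins with both marks stand lowest, at 54.6, 59.5 and 61.2%.

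Sites of ES p300 differed in the H3K4me1 that MEFs had around them. ES p300 called in both libraries away from H3K4me3 gave 16593 sites. Of these, 8329 (50.2%) had lost bins and neither kept nor gained bins within 2 kb, 1073 had kept bins and no called bin, and 569 had gained bins alone. A further 6621 (39.9%) held other combinations. The level of MEFs around lost sites was fixed by their choice and is given as a description. At the centre of lost sites, within 250 bp, MEF H3K4me1 had 0.644 RPM per kb, against 3.06, 3.51 and 3.59 RPM in the ES libraries. At 600 to 1200 bp it had 0.289 RPM in MEFs, against 2.55, 2.59 and 2.85 RPM in ES cells. The MEF level at 4000 to 5000 bp was 0.598 RPM, so MEFs were lower beside the p300 centre than in its surroundings, in bins that had been chosen as low in MEFs. MEF H3 had 0.544 RPM at 600 to 1200 bp and 0.549 RPM at 4000 to 5000 bp, so H3 did not show this dip.

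At their centres, lost sites held more p300 than kept sites. The centre had 9.73 and 9.45 RPM per kb of p300 at lost sites, against 7.19 and 6.55 RPM at kept sites. Over ES-marked bins away from H3K4me3 the order was the other way. There p300 had 1.99 and 1.88 RPM at lost bins, against 2.24 and 2.01 RPM at kept bins. The 6621 sites with other combinations are in neither group of sites, and the reason for the difference was not tested. H3K27ac at the centre had 4.09 and 3.73 RPM at lost sites, against 3.92 and 3.97 RPM at kept sites, so the 2 libraries differed in direction. In its shoulders, at 600 to 1200 bp, H3K27ac had 2.32 and 2.02 RPM at lost sites, against 1.70 and 1.55 RPM at kept sites. At kept sites MEF H3K4me1 peaked on the p300 centre, at 4.79 RPM, and fell to 2.04 RPM at 600 to 1200 bp, while the ES libraries had 2.93, 3.57 and 3.70 RPM at the centre and 2.15, 2.18 and 2.46 RPM in the shoulders. The mark in MEFs was thus more sharply centred on these ES p300 positions than the mark in ES cells. This was not particular to kept sites. At lost sites, chosen as low in MEFs, the shoulders stood at 0.448 of the centre in MEFs. The ES libraries had 0.833, 0.737 and 0.795 there. H3 ran the same way at kept sites, with 0.778 RPM at the centre and 0.679 RPM in the shoulders in MEFs, against 0.503 and 0.570 RPM in ES cells, and its part in the difference was not tested. Whole cell extract of ES cells had 0.824 RPM at the centre of lost sites and 0.809 RPM at kept sites.

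**Figure D4:**
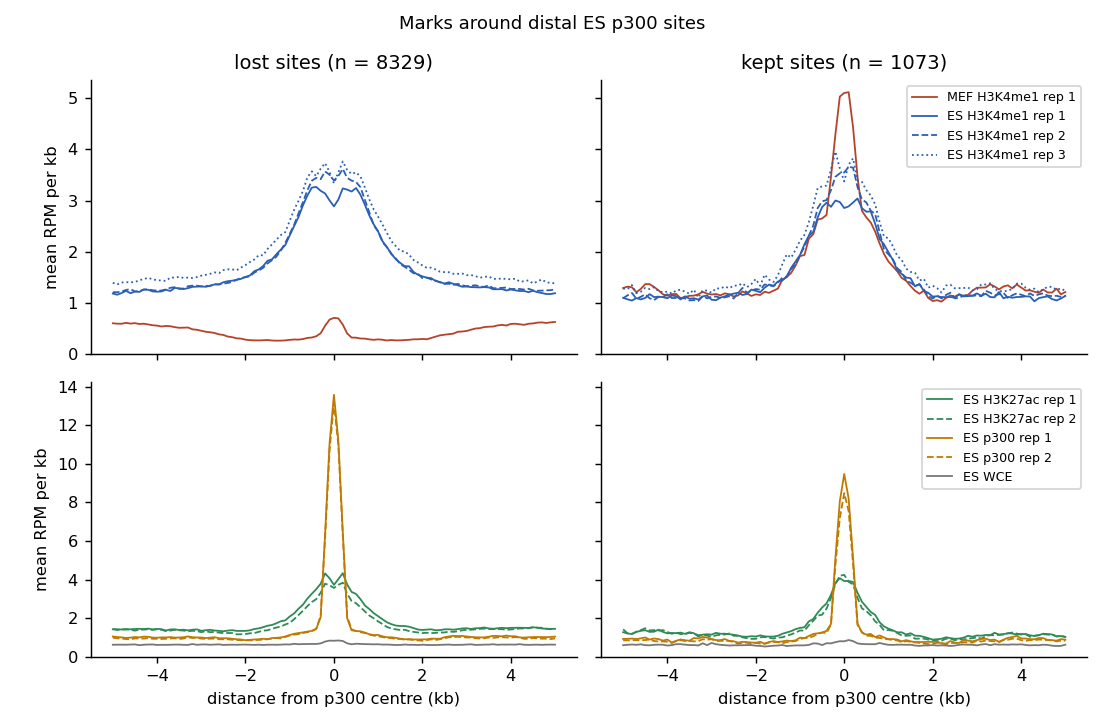
Mean RPM per kb against distance in kb from the centre of distal ES p300 sites, at 8329 lost and 1073 kept sites, with 1 line per library; the upper panels show H3K4me1 of MEFs and ES cells and the lower panels ES H3K27ac, p300 and whole cell extract (WCE). The MEF line lies below the ES lines over the whole 10 kb at lost sites, with 0.644 RPM at the centre and 0.289 RPM beside it, and peaks on the centre at kept sites, at 4.79 RPM.

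Around ES promoters the direction of change depended on distance. At bins that carried ES H3K4me3 themselves, H3K4me1 had 2.53 RPM in MEFs, against 1.47, 1.99 and 1.53 RPM in ES cells, and 19.2% of those tested were gained and 6.61% lost. At 1 kb from such bins it had 1.85 RPM in MEFs, against 2.10, 2.09 and 2.19 RPM, with 9.0% gained and 24.9% lost. At 5 kb 19.4% were gained and 39.5% lost. H3K4me1 over ES H3K4me3 was thus above the level at 1 kb in MEFs and below it in each ES library. H3 moved in the same places, at 0.933 RPM in MEFs and 0.428 RPM in ES cells over H3K4me3 bins and at 0.677 RPM in MEFs and 0.597 RPM in ES cells at 1 kb, and its part in the H3K4me1 values was not tested. Of all tested ES-marked bins, 30.2% within 2 kb of H3K4me3 were lost, against 57.4% of those farther away. For bins that carried both H3K27ac and p300 the shares were 24.4 and 58.5%, so the contrast was not particular to them.

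Other H3K4me1 libraries of the series, which took no part in the calls, differed between gained and lost bins. iPS cells made from MEFs had 0.926 RPM at gained bins, within the range of the ES libraries, and 3.53 RPM at lost bins, against 4.95 and 0.451 RPM in MEFs. Liver had 1.80 RPM at gained, 1.14 RPM at lost and 3.09 RPM at kept bins. Liver was enriched at 27.5% (27.2 to 27.8) of gained, 17.1% (16.8 to 17.3) of lost and 53.7% of kept bins, against 29.5% of all tested bins and 39.4% of bins not called. Bins shared by MEFs and ES cells were thus those most often marked in liver too, and each of these libraries is single.

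Gains and losses were found on every chromosome. Gained bins made up 25.7 to 34.5% of tested bins and lost bins 25.1 to 33.2%, with chromosome 6 highest for gains and chromosome 4 for losses. Chromosome 4 had 5100 gained and 6604 lost bins, while chromosome 3 had 4326 gained and 3204 lost bins. In windows of 1 Mb, of which there were 2361, the median was 24 gained and 16 lost bins. The window chr2:27000001-28000000, which holds the 81 kb domain, had 333 gained and 56 lost bins, the most gained of any window, and a mean of 3.00 RPM per kb in MEFs, against 0.803, 0.907 and 0.941 RPM in ES cells. The windows chr5:36000001-37000000 and chr7:112000001-113000000 followed, with 259 and 252 gained bins and 75 and 67 lost ones.

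The window with most losses, chr11:88000001-89000000, had 34 gained and 267 lost bins and 0.987 RPM per kb in MEFs, against 1.76, 1.91 and 2.09 RPM in ES cells. The windows chr2:165000001-166000000 and chr11:117000001-118000000 had 246 and 242 lost bins but also 71 and 136 gained ones, so losses did not always come in windows without gains. In the last of these the mean MEF level of 2.67 RPM per kb lay within the range of the ES libraries, at 2.02, 2.46 and 2.77 RPM.

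Chromosome 8 stood apart in H3. Its share of H3 reads in MEFs was 0.850 of that in ES cells, against 0.977 to 1.04 on the other chromosomes. In bins outside enriched regions, the share of reads on chromosome 8 was taken relative to that in MEF H3. It stood at 1.19 in ES H3 and 1.19 in ES whole cell extract, where the other chromosomes reached at most 1.01 and 1.04. It stood at 1.02 in MEF H3K4me1, against 1.17, 1.04 and 1.08 in ES H3K4me1 replicates 1 to 3. The highest other chromosome stood at 1.11 in MEF H3K4me1 and at 1.13, 1.16 and 1.27 in these ES libraries. Chromosome 8 thus lay above the others in ES H3K4me1 replicate 1, but not in replicates 2 and 3. The copy number of chromosome 8 in these cells was not tested. Of its 16161 tested bins, 4978 were gained and 4369 lost, or 30.8 and 27.03%, close to the 29.9 and 28.5% of all chromosomes.

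**Figure D5:**
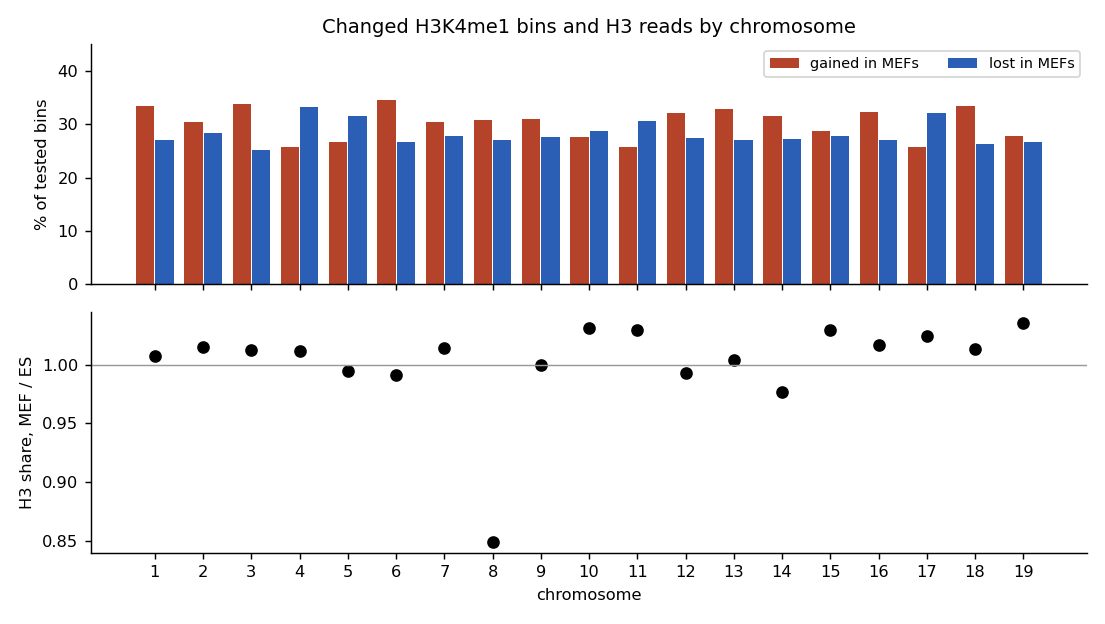
Upper panel, percent of tested 1 kb bins on each chromosome that were gained and lost in MEFs. Lower panel, share of H3 reads on each chromosome in MEFs over that in ES cells, where chromosome 8 stands at 0.850 and the others lie between 0.977 and 1.04.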

How the data were processed

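The authors deposited, for each library, the signed position of every aligned read in sections named U0 and U1, per the file headers, and not counts per feature. This is an unusual kind of value (neither count nor signal), so reads were counted per bin here. The main fit was on log2 RPM, and limma-voom on the bin counts was run as an alternative. The aligner was not given in the sources used here, nor was the build. Per the labels' protocols, chromatin of about 500 bp was immunoprecipitated, amplified with 18 cycles of PCR, and inserts of 100 to 250 nt were kept, so repeated positions can be PCR copies.

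Each position and strand was counted once, moved 100 bp toward the fragment centre, counted in 1 kb bins of chromosomes 1 to 19 and scaled to reads per 1000000 distinct reads on these chromosomes (RPM). Log2 values with a prior count of 2 were tested with limma 3.58.1 (trend) in R 4.3.3, MEF minus ES, with no covariate. Bins entered at a mean RPM of 1. The 3 ES libraries gave 2 residual degrees of freedom. Enriched bins exceeded the larger of the genome mean and scaled H3 over 5000 bp (whole cell extract for p300) by 3-fold at a Poisson adjusted p of 0.01. A library whose labels read both p300 and p301 was used as p300. Changed bins were joined over gaps of up to 1 kb. Binning, joins and calls were done in Python 3.11.15 with numpy 2.4.6 and scipy 1.17.1, and the fit was tested on simulated data.

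Regions were named by rule: the 5 gained and 5 lost domains with the largest summed difference, the 3 widest of each, the 5 gained and 5 lost bins with the largest log2 difference, the 5 lost domains with the highest ES p300 and the 5 with the highest ES H3K27ac, the 3 windows of 1 Mb with most gains and the 3 with most losses, and the 3 kept domains with the largest ES sum. The rule and the sets of bins were chosen with earlier results of these data known. The H3 comparison is given as ratios of mean levels rather than medians of log2 ratios, since many bins held few H3 reads. Classes of ES level, p300 sites, H3K4me3 flanks and windows were described after the fit. A ratio of reads in a named region has an exact Clopper-Pearson interval; shares have Wilson intervals; levels against 0 use 3 reads as the floor.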

Additional observations from a re-analysis of the deposited data

How the results depend on the processing

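No paired analysis was possible because the MEF and ES H3K4me1 groups share fewer than 2 replicate numbers. Without a filter on level limma called 0 gained and 0 lost bins among 2034560 tested, against 182875 and 204116 at an unadjusted p under 0.05; no domains or ratios could be computed there. With the filter at 2 RPM, 46244 bins were gained and 24483 lost, and gains made up 65.4% of calls against 51.2% as reported. Gained and lost domains then had mean widths of 1.95 and 1.89 kb, and the H3 ratio was 1.47 at gained and 1.11 at lost bins. The lost-to-kept ratios turned round to 1.10 for H3K27ac and 1.20 for p300. A lost bin is low in MEFs, so it needs a higher ES level than a kept bin to pass this filter. The part of this selection in the reversal was not tested. In 2 kb bins, 47564 were gained and 41252 lost, gains were 53.6%, widths 3.19 and 3.30 kb, H3 ratios 1.38 and 1.05, and MEF regions had a mean width of 3.19 kb.

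The share of gains was 52.0% with MEFs thinned to ES depth, 50.7% with all 4 libraries thinned, 50.8% with repeated reads kept, 48.0% with trimmed means, 59.1% with scaling to bins enriched in no library, 47.0% with a prior count of 0.5, 54.9% with limma-voom, 46.7% with correction by H3 over 50 kb and 44.7% over 5 kb. The balance of gains and losses thus depended on scaling. Gained domains had mean widths of 1.96 kb with all libraries thinned, 2.07 kb with a prior count of 0.5, 2.21 kb with limma-voom, and 2.02 and 2.00 kb with H3 correction over 50 and 5 kb. Lost domains had 2.22 kb with all libraries thinned and 2.25 kb with scaling to bins enriched in no library. With no gaps joined the widths were 1.80 kb for gained and 1.89 kb for lost domains and 1.84 kb for MEF regions. With gaps of 3 kb joined they were 3.04, 3.54 and 3.42 kb, and with the genome mean as background MEF regions had 2.71 kb.

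The H3 ratio at gained bins was 1.37 with all libraries thinned, 1.40 with a prior count of 0.5 and with limma-voom, and 1.37 and 1.24 with H3 correction over 50 and 5 kb. At lost bins it was 1.04 with all libraries thinned, 1.06 with trimmed means, 1.03 with scaling to bins enriched in no library, and 1.08 and 1.14 with the 2 H3 corrections. The p300 ratio was 0.831 with repeated reads kept. The H3K27ac ratio was 0.781 within classes of ES H3K4me1 level and 0.838 away from H3K4me3. The causes of these shifts were not tested.

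Leaving out 1 ES library at a time gave 63137 to 93169 gained and 64932 to 76831 lost bins, gains of 48.7 to 54.8%, gained domains of 1.99 to 2.18 kb, lost domains of 2.26 to 2.37 kb, H3 ratios of 1.38 to 1.40 at gained and 1.02 to 1.05 at lost bins, H3K27ac ratios of 0.675 to 0.769 and p300 ratios of 0.887 to 0.933. Alternatives named as chosen after seeing the data are the H3 correction over 5 kb, the genome mean background and the full-depth widths. The single MEF library, 1 H3 library per cell type and the mixed ES stocks limit every comparison, and bins under 1 RPM were not tested, so weak H3K4me1 was out of reach at these depths.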

Other observations

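Windows of 1 Mb often held both kinds of change. Of the 2361 windows, 338 had at least 50 gained and at least 50 lost bins, 337 had no gained bin and 407 had no lost bin. In 203 windows with at least 50 gained bins these were at least 3 times as many as lost bins, and in 140 windows with at least 50 lost bins these were at least 3 times as many as gained bins. The H3 ratio of MEFs to ES cells over windows lay between 0.678 and 1.28 from the 1st to the 99th percentile.

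Some lost domains had no MEF read over their whole width. This held for 1501 of the 36171 lost domains, while 97 of the 41751 gained domains had no read in any ES H3K4me1 library. MEF H3 had no read at 3.50% of lost bins and ES H3 none at 0.682% of them. Among the 4381 lost domains of at least 5 kb none lacked MEF H3 reads, and among the 3663 gained domains of at least 5 kb none lacked ES H3 reads.

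At the 569 distal p300 sites with gained bins alone, MEF H3K4me1 had 7.74 RPM per kb at the p300 centre, against 2.25, 2.73 and 3.03 RPM in ES replicates 1 to 3. ES p300 had 5.28 and 4.62 RPM there, below the 9.73 and 9.45 RPM of lost sites, and ES H3K27ac had 2.97 and 3.38 RPM. These sites thus carried p300 and H3K4me1 in ES cells, while the stronger H3K4me1 in MEFs was fixed by their choice. The H3K4me1 level at 600 to 1200 bp was 0.555 of the centre in MEFs, against 0.633, 0.541 and 0.571 in ES replicates 1 to 3. The mark in MEFs was therefore not more centred at these sites than in ES cells.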
